A study of Mus musculus with 56 samples.

Results

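Hearts of day-fed mice were compared between the opening of the feeding window and 4 h later. The members are the 8 libraries that the labels place at ZT0 and ZT4 of daytime-restricted feeding (DRF), 4 at each time, out of 56 heart RNA-seq libraries in the series. ZT counts hours from lights on. All mice were female C57BL/6J, housed in a 12 h/12 h light cycle, and 9 weeks old after 7 days of restricted feeding. Under DRF, food was offered in the light phase, so ZT0 closed the nightly fast and ZT4 lay inside the feeding window. Under nighttime-restricted feeding (NRF), food was offered in the dark phase and the mice were otherwise treated alike. The 16 NRF libraries used for comparison came from ZT0 and ZT4, the same clock times without food, and from ZT12 and ZT16, the matching hours around the opening of the NRF window. Food, light and clock time all changed between ZT0 and ZT4 of DRF and cannot be told apart in this contrast. Intake within those 4 h was not measured in these files, and the labels number the replicates without naming the animal behind each, so the p-values measure the spread between libraries.

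A meal raises insulin, and in muscle insulin keeps FOXO transcription factors out of the nucleus, so that their targets in growth arrest and protein breakdown are repressed. Secreted and membrane proteins fold in the endoplasmic reticulum (ER), where the chaperone encoded by Hspa5 also holds the sensors of the unfolded protein response in check. The core clock of heart muscle is a loop in which activators drive Per, Cry and Nr1d1, whose products repress the loop. Glucocorticoids, which in rodents peak before the usual feeding time, switch on genes such as Per1, Tsc22d3 and Zbtb16.

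The 4 ZT0 libraries resembled each other, whereas of the ZT4 libraries replicates 3 and 4 did. For each library the gene-wise deviations from the mean of all 14 groups were correlated over genes with those of each group mean, leaving the library itself out of its own group. The ZT0 libraries were each most like their own group, with r from 0.37 to 0.47. The library labelled DRF ZT4 replicate 1 had r = −0.16 with the other 3 of its group and was most like NRF ZT8, at r = 0.33. Replicate 2 had r = −0.20 with its group and was most like DRF ZT12, at r = 0.24. Taken singly, it had r = −0.31 with replicate 1, −0.01 with replicate 3 and −0.05 with replicate 4. Replicates 3 and 4 had r = 0.24 and 0.12 with their group, were most like NRF ZT24, at r = 0.30 and 0.21, and correlated with each other at r = 0.30, against 0.21 to 0.37 between pairs of ZT0 libraries. None of the 4 ZT4 libraries was thus most like its own group. These correlations run over genes, which are not independent replicates, and are given as a description with no test.

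**Figure D1:**
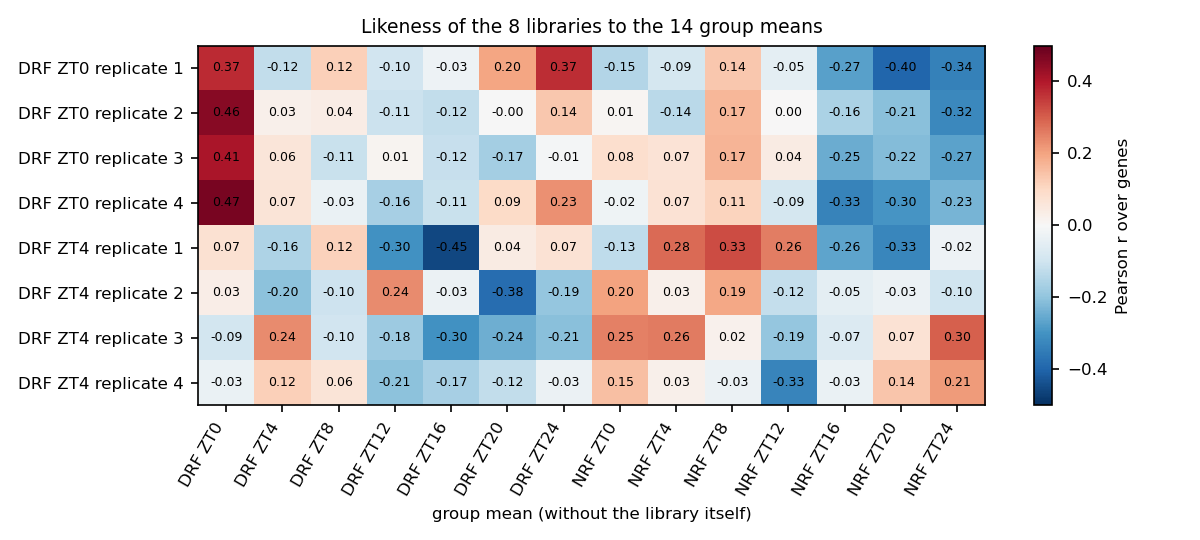
Heat map of the Pearson correlation over genes between each of the 8 libraries (rows) and each of the 14 group means (columns), with the library left out of its own group mean. The ZT0 rows are highest in their own column (0.37 to 0.47). DRF ZT4 replicate 1 is highest against NRF ZT8 (0.33) and replicate 2 against DRF ZT12 (0.24). Both lie below 0 against their own group (−0.16 and −0.20).

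Replicate 1 lay apart from the other 3 ZT4 libraries, in a direction that was not the same in all gene groups. In 691 of the 809 genes called without it (85.4%), it lay on the ZT0 side of the other 3 ZT4 libraries. The same measure gave 43.5% of 230 genes for replicate 2, 14.1% of 92 for replicate 3 and 34.2% of 120 for replicate 4, each time among the genes called without that library. Genes called without a library are chosen for the distance of the other 3 from ZT0, and the sets for replicates 2 to 4 were called with replicate 1 in, so these shares are a description that carries no test. Among 19 core clock genes, replicate 1 lay past the other 3 in the direction away from ZT0 in 13 and toward ZT0 in 6. That direction is the sign of the difference without replicate 1, which was not called in 15 of the 19. The share over all genes was not taken, and the 85.4% above is of called genes only. The results below are given with and without it.

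Sequencing depth was 29.5 to 39.3 M reads (M, 1e+06) per library. Values are transcripts per M transcripts (TPM), computed from whole read numbers recovered from the deposited values, and fold changes are differences of log2(TPM + 1). Cardiomyocyte markers summed to between 30952 and 39710 TPM in the 8 libraries, and 0 of 65 tested markers of 11 cell types were called by limma between ZT4 and ZT0, with or without replicate 1, while 4 had an unadjusted p under 0.05 with it. DRF ZT4 replicate 2 held 66737 TPM of 5 erythroid markers, against 1890 to 22050 TPM in the other 7 libraries, and 263 TPM of 5 mesothelial markers against 5.08 to 50.8 TPM. Atrial markers summed to 2289 to 5461 TPM at ZT0 and 288 to 5031 TPM at ZT4, where 3 of the 4 libraries lay below the ZT0 range (exact two-sided permutation p = 0.2). In bulk tissue, fewer cells of a type and less RNA per cell cannot be told apart.

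Limma was fitted to the 13869 genes that averaged 1 TPM or more over the libraries, as 14 group means over all 56 libraries, with Benjamini-Hochberg adjusted p under 0.05 as the threshold for a call. Between ZT0 and ZT4 of DRF, 321 genes were called (2.31% of those tested), 178 higher (1.28%) and 143 lower (1.03%) at ZT4. Without replicate 1, 809 genes were called (5.83%), 360 higher (2.6%) and 449 lower (3.24%), and 306 genes were called in both fits. Most changes were modest: 24 of the 321 and 50 of the 809 reached a 2-fold change, and the median absolute log2 difference of the called genes was 0.46 and 0.43. At an unadjusted p under 0.05, 2228 of the 13869 genes passed. Without both replicates 1 and 2, an analysis chosen after seeing the data, 654 genes were called.

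The count rested on individual libraries. Leaving out ZT4 replicate 3 left 92 genes and ZT4 replicate 4 left 120, whereas leaving out ZT0 replicates 1 to 4 in turn left 124, 201, 206 and 208. When only the 8 libraries were fitted, with their own estimate of the spread, 10 genes were called. In that fit 1632 of the 13869 genes had an unadjusted p under 0.05. Against DRF ZT24, the same clock time 1 day later, ZT4 differed in 703 genes, and with median-of-ratios scaling 918 genes were called against ZT0.

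The promoters of 4 of the genes that changed most are printed to show the start regions of the gene with the largest rise over all 8 libraries, the ER chaperone with the largest rise, and a pair of hormone-responsive genes that fell. Each is 250 bases before and 50 after a RefSeq start in GRCm38.p6, written 5′ to 3′ on the strand of the gene, in lower case with matches to searched motifs in capitals. They lie at chr11:98775328-98775627, minus strand (Nr1d1), chr16:17132334-17132633, minus strand (Sdf2l1), chr10:59951721-59952020, minus strand (Ddit4) and chr11:69098699-69098998, plus strand (Per1).
Nr1d1: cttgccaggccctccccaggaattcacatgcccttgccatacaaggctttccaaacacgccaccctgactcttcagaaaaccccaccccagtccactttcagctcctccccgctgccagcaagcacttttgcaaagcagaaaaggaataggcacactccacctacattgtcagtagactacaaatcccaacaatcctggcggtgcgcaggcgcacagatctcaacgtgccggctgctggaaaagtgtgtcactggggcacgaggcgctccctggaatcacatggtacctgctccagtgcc
Sdf2l1: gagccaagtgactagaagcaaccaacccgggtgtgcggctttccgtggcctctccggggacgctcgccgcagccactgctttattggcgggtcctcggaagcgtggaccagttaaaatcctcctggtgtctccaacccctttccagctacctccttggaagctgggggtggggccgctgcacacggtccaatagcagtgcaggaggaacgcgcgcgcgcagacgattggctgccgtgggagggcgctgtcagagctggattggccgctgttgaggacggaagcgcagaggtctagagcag
Ddit4: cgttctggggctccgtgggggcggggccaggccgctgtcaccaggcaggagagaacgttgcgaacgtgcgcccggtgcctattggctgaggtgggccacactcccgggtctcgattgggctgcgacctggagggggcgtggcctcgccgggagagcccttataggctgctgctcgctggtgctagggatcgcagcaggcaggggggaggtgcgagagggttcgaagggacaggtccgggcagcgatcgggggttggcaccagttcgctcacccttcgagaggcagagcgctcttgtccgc
Per1: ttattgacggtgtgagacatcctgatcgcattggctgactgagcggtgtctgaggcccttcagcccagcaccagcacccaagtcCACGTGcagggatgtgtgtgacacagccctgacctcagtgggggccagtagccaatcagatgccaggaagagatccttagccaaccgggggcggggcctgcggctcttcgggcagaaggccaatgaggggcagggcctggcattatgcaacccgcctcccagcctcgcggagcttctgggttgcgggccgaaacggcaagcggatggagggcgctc
Both strands were searched for 8 motifs: the E-box CACGTG, bound by clock activators and repressors, the D-box TTATGTAA, a FOXO site GTAAACA, an ROR and REV-ERB element TAGGTCA, a cAMP response element TGACGTCA, a heat shock element GAANNTTC, a sterol element CACCCCAC and an amino acid response element TGATGCAA. The only match in the 4 windows was an E-box at bases 85 to 90 of the Per1 window. Per1 has 2 RefSeq starts, and the window printed lies 3732 bases from the start of the GENCODE gene. Among all 9901 tested genes with a window, 10.1% held the E-box, 0.515% the D-box, 2.51% the FOXO site, 1.85% the ROR and REV-ERB element, 3.1% the cAMP response element, 5.58% the heat shock element, 3.07% the sterol element and 0.586% the amino acid response element. Only 139 of the 178 genes that rose and 104 of the 143 that fell had a window, under 80% of each, so a comparison of motif shares between these sets is void and none is given. A match is a description of letters, and a window without one says only that these letters are not in it.

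Many chaperones and folding enzymes of the ER rose at ZT4. Of 25 genes listed as ER chaperones or members of the unfolded protein response, 24 were tested and 15 were called, all of them higher (1.28% of all genes). The median log2 difference of the 24 was 0.45, against −0.01 over all genes tested. Without replicate 1, 16 were called, the same 15 and Dnajb9, all higher (2.6% of all genes), with a median of 0.57 against −0.02. Leaving out any other of the 8 libraries left between 10 and 14 called, all higher, and leaving out both ZT4 replicates 1 and 2 left 15. Against DRF ZT24, 11 were higher (2.6% of all genes) and 1, Atf6, was lower (2.47%). With only the 8 libraries in the fit, 1 of the 24, Hsp90b1, was called (adjusted p = 0.0227), the other 14 calls were lost, with Hspa5 at an adjusted p of 0.0894 and Sdf2l1 at 0.141, and 16 of the 24 had an unadjusted p under 0.05. In 15 of the 24 genes every ZT4 library lay above every ZT0 library, against 3.76% of all genes tested, and in 18 without replicate 1, against 6.73%.

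Hspa5 (ENSMUSG00000026864, chromosome 2, 34771970 to 34777547, plus strand of GRCm38) encodes BiP, the main chaperone of the ER lumen. Its levels, in the order of replicates 1 to 4 as in all such lists, were 154, 187, 155 and 165 TPM at ZT0 and 231, 328, 294 and 399 TPM at ZT4. All ZT4 libraries lay above all ZT0 libraries, and replicate 1 was the lowest of the ZT4 group. The difference on the log2 scale was 0.90 ± 0.15 (SE; adjusted p = 0.000563), and 1.03 ± 0.16 (SE; adjusted p = 5.07e-05) without replicate 1.

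Sdf2l1 (ENSMUSG00000022769, chromosome 16, 17130138 to 17132383, minus strand), whose product assists BiP, showed the largest rise of the list. It stood at 6.82, 11.1, 11.3 and 7.46 TPM at ZT0 and 12.9, 47.1, 30.2 and 37.9 TPM at ZT4. Replicate 1 was close to the highest ZT0 library, whereas replicates 2 to 4 were well above it. Its log2 difference was 1.59 ± 0.25 (SE; adjusted p = 0.000289), and 1.96 ± 0.24 (SE; adjusted p = 1.48e-06) without replicate 1.

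Manf (ENSMUSG00000032575, chromosome 9, 106838312 to 106891979, minus strand), a small secreted ER protein induced by misfolding, behaved similarly, at 12.9, 17.1, 15.7 and 14.8 TPM at ZT0 and 19.6, 51.4, 36.7 and 57.99 TPM at ZT4. The groups did not overlap, and the log2 difference was 1.29 ± 0.22 (SE; adjusted p = 0.000419), or 1.61 ± 0.20 (SE; adjusted p = 1.48e-06) without replicate 1. Creld2, another ER-resident protein induced by misfolding, stood at 14.9, 18.1, 19.1 and 18.1 TPM at ZT0 and 20.6, 52.5, 36.5 and 45.7 TPM at ZT4, with a log2 difference of 1.03 ± 0.19 (SE; adjusted p = 0.000839), and 1.30 without replicate 1 (adjusted p = 3.51e-06). Hyou1, the large chaperone that exchanges nucleotide on BiP, stood at 10.3, 13.7, 12.2 and 11.8 TPM at ZT0 and 14.01, 27.7, 23.03 and 31.99 TPM at ZT4, with a log2 difference of 0.90 ± 0.16 (SE; adjusted p = 0.00079), and 1.13 without replicate 1 (adjusted p = 3.51e-06). In both genes replicate 1 was the lowest ZT4 library and still lay above the ZT0 group.

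Chaperones of the calnexin cycle and cochaperones were called in part. Calr, which binds newly made glycoproteins in the lumen, stood at 151, 187, 187 and 169.7 TPM at ZT0 and 219.7, 329, 267 and 275 TPM at ZT4, a log2 difference of 0.64 ± 0.11 (SE; adjusted p = 0.000654), and 0.74 without replicate 1 (adjusted p = 6.47e-05). Its membrane-bound counterpart Canx rose by 0.27 (adjusted p = 0.0138), and Hsp90b1, the ER form of the HSP90 chaperone, by 0.71 (adjusted p = 0.00155). The BiP cochaperones Dnajb11 and Dnajc3 rose by 0.36 and 0.51 (adjusted p = 0.0149 and 0.00612). A further cochaperone, Dnajb9, was called without replicate 1 and not with it (log2 difference 0.32 ± 0.09 (SE; adjusted p = 0.0218)), and Cnpy2 had a log2 difference of −0.08 (adjusted p = 0.717).

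Of the 4 listed disulfide isomerases, which form and rearrange disulfide bonds in folding proteins, 3 were called. Pdia4 stood at 23.5, 25.2, 27.3 and 24.3 TPM at ZT0 and 29.9, 60.8, 47.6 and 54.7 TPM at ZT4 with no overlap and a log2 difference of 0.87 ± 0.15 (SE; adjusted p = 0.000419), and 1.08 without replicate 1 (adjusted p = 1.48e-06). Pdia3 and Pdia6 rose by 0.68 and 0.61 (adjusted p = 0.000368 and 0.00255). P4hb, the most studied enzyme of this family, had a log2 difference of 0.10 (adjusted p = 0.581) with overlapping groups.

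Most of the sensors and the degradation machinery were not called. Of these 8 tested genes, Xbp1, the transcription factor activated by splicing in the unfolded protein response, and Syvn1, a ubiquitin ligase of ER-associated degradation, were called. Xbp1 stood at 41.6, 52.4, 47.5 and 47.6 TPM at ZT0 and 48.04, 89.4, 69.4 and 76.4 TPM at ZT4, a log2 difference of 0.54 ± 0.12 (SE; adjusted p = 0.00929), and 0.72 without replicate 1 (adjusted p = 9.7e-05), with replicate 1 inside the ZT0 range. Syvn1 rose by 0.39 (adjusted p = 0.0434). The sensors Atf6 and Ern1 had log2 differences of 0.00 and −0.22 (adjusted p = 0.994 and 0.372). Herpud1, Sel1l, Derl1 and Derl2, all of the degradation pathway, had adjusted p from 0.288 to 0.835. Derl3 did not reach the mean of 1 TPM. Spliced and unspliced Xbp1 cannot be told apart in counts per gene.

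**Figure D2:**
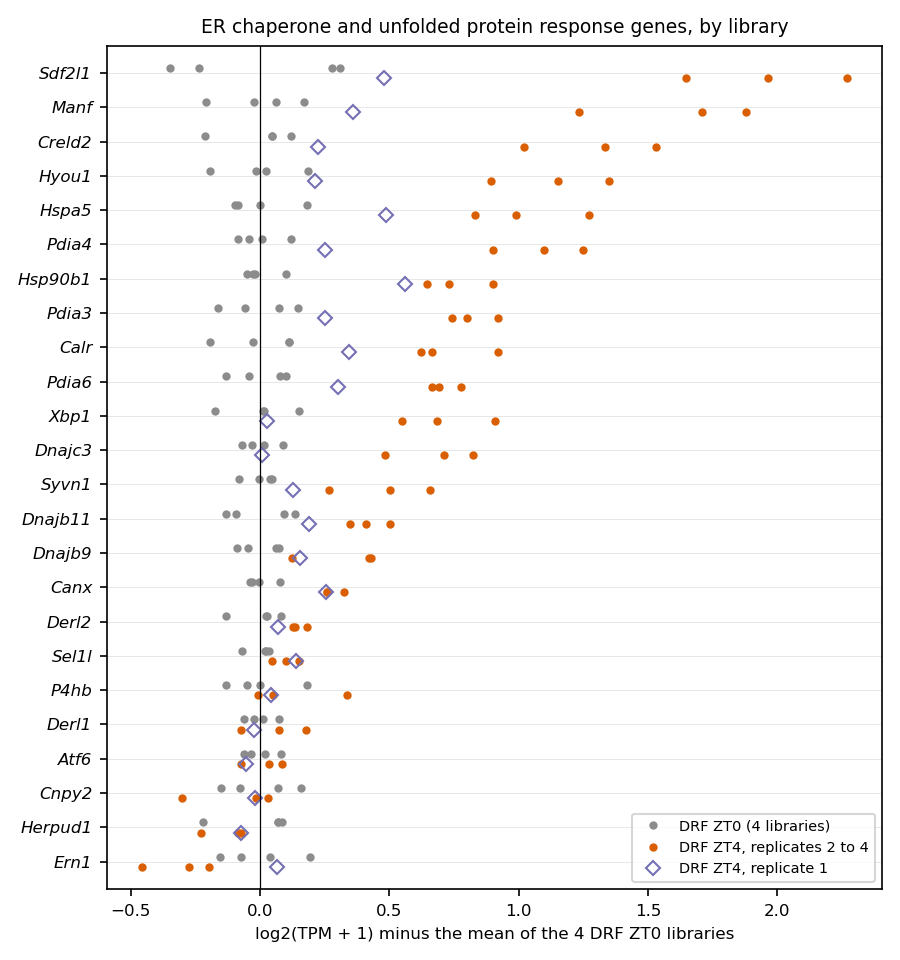
Each of the tested ER genes is a row, with log2(TPM + 1) minus the mean of the 4 ZT0 libraries on the x axis and 1 point for each of the 8 libraries. In 15 of 24 genes all 4 ZT4 points lie to the right of all ZT0 points, with replicate 1 usually the nearest to the ZT0 group.

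None of the ER genes was called between ZT0 and ZT4 when the mice had no food in those hours. Under NRF the limma contrast gave 29 called genes (0.209%), 0 of them from this list, of which 13 had an unadjusted p under 0.05, and the median of the 24 was −0.22. The number over all genes at that unadjusted p was not taken for this contrast. The difference between the regimens, tested as an interaction, was called for 638 genes (4.6%), 497 higher (3.58%) and 141 lower (1.02%) under DRF. Without replicate 1 it was called for 1016 genes (7.33%), 673 higher (4.85%) and 343 lower (2.47%). Under median-of-ratios scaling the split of the interaction was 578 higher to 425 lower, against 497 to 141 here. The ER list held 15 of the higher calls, with and without replicate 1, and a median interaction of 0.75, or 0.87 without it. Sdf2l1 had an interaction of 2.12 (adjusted p = 0.000317), Manf of 1.80 (adjusted p = 0.000317) and Hspa5 of 1.23 (adjusted p = 0.000501).

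The means of the regimens also lay apart at ZT0. Hspa5 averaged 165 ± 15.2 TPM (SD, n = 4) at DRF ZT0 and 329.6 ± 76.7 TPM at NRF ZT0, where the NRF feeding window had just closed. At ZT4 it averaged 313 ± 69.8 TPM under DRF and 260.3 ± 53.5 TPM under NRF. Over all 14 groups, the lowest mean fell at DRF ZT0 in 14 of the 24 ER genes (58.3%), against 5.79% of all genes tested. The highest mean fell at DRF ZT4 in 3 of the 24, against 2.69% of all genes, and in 10 (41.7%) without replicate 1, against 5.53% of all genes. DRF ZT24, the other sampling of the same clock time, was less low: Hspa5 averaged 204 ± 32.6 TPM there. Against ZT24, 11 of the 24 were called higher and 1, Atf6, lower at ZT4, with backgrounds of 2.6% and 2.47%, and the median was 0.33. The log2 difference of Sdf2l1 was 0.92 against ZT24 (adjusted p = 0.0254). With median-of-ratios scaling against ZT0, 16 of the 24 were higher and 0 lower, with backgrounds of 4.07% and 2.55%.

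Around the opening of the NRF window 2 of the ER genes rose, and the difference from the DRF onset, tested with limma, was called in 0 of the 24 with all 8 libraries, while 17 had an unadjusted p under 0.05. Over all genes that difference had an unadjusted p under 0.05 in 1599 of 13869, and in 1440 without replicate 1. From ZT12 to ZT16 of NRF, 1187 genes were called (8.56%), 371 higher (2.68%) and 816 lower (5.88%), and the ER list had a median of 0.07 against −0.05 over all genes. The change at feeding onset differed between the regimens in 82 genes (0.591%), 45 higher (0.324%) and 37 lower (0.267%) under DRF, and in 31 genes (0.224%) without replicate 1, 14 of them higher (0.101%). Without replicate 1, 4 ER genes, Manf, Creld2, Pdia3 and Pdia4, were among the 14. The median difference over the list was 0.40, and 0.48 without replicate 1.

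**Figure D3:**
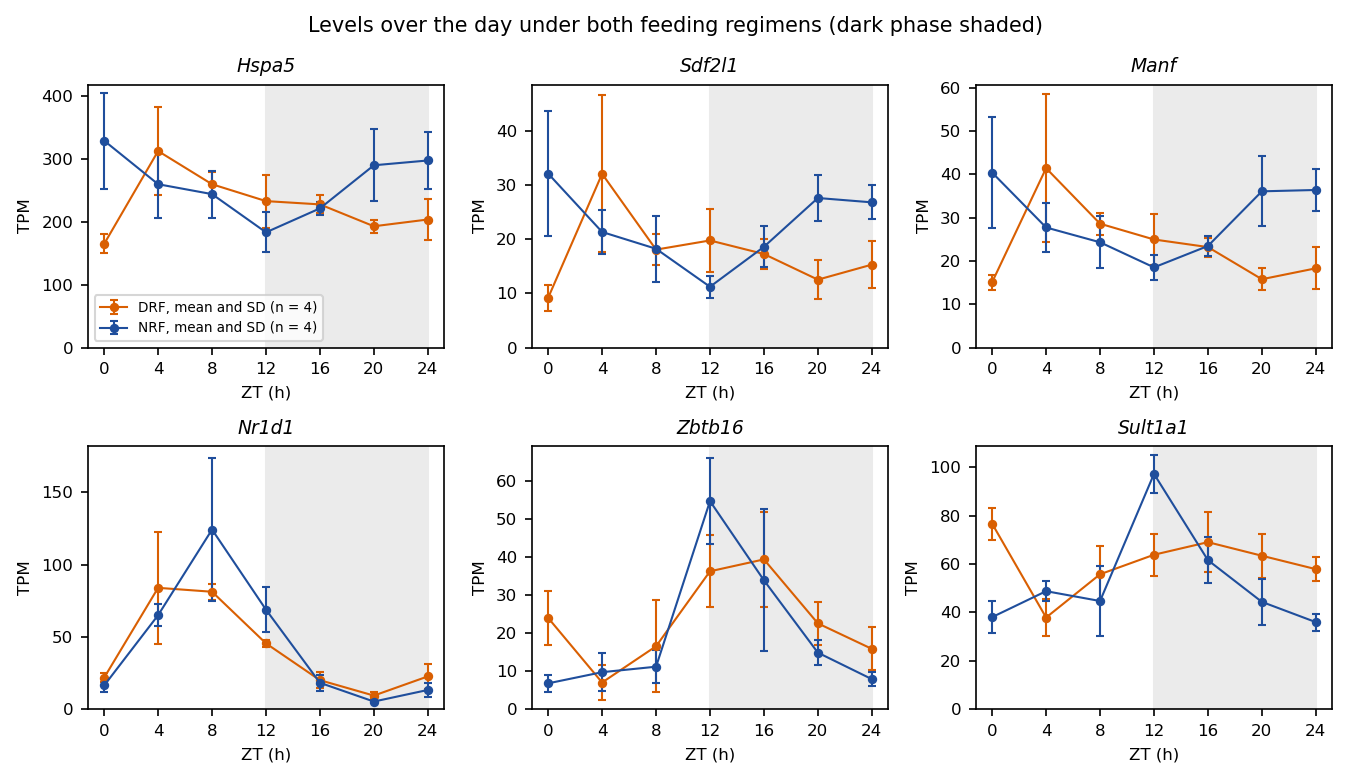
Mean TPM with SD (n = 4) at 7 times of day under DRF and NRF for Hspa5, Sdf2l1, Manf, Nr1d1, Zbtb16 and Sult1a1, with ZT in hours on the x axis and the dark phase shaded. Hspa5, Sdf2l1 and Manf rise from a low at DRF ZT0 to DRF ZT4, where the error bars widen, while the NRF means fall over the same hours.

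A few heat shock genes outside the ER list also rose. Of 22 genes on the heat shock and temperature list, 3 were called higher (1.28% of all genes) and 0 lower, with a median of 0.18, whereas without replicate 1, 8 were higher (2.6%) and 2 lower (3.24%), with a median of 0.27. Leaving out ZT4 replicate 3 or ZT0 replicate 1 left 1 call, of a higher gene. Serpinh1 (ENSMUSG00000070436, chromosome 7, 99345376 to 99353239, minus strand), the collagen chaperone of the ER and a heat shock gene, stood at 154, 253, 238 and 195 TPM at ZT0 and 244, 447, 456 and 444 TPM at ZT4. Replicate 1 lay inside the ZT0 range and the other 3 ZT4 libraries were closely grouped above it. Its log2 difference was 0.90 ± 0.18 (SE; adjusted p = 0.00227), and 1.12 ± 0.17 (SE; adjusted p = 5e-05) without replicate 1. Hspa4 and Chordc1, a nucleotide exchange factor and an HSP90 cochaperone, rose by 0.27 and 0.49 (adjusted p = 0.0103 and 0.0451), and lost their calls in 5 and 11 of 19 alternatives.

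The heat shock genes called without replicate 1 and not with it included cytosolic chaperones, while others, such as Cryab (log2 difference 0.03 without replicate 1, adjusted p = 0.885), were called in neither fit. Hspa8, the constitutive HSP70, stood at 404, 615, 549 and 483 TPM at ZT0 and 405, 648, 728 and 816 TPM at ZT4, with log2 differences of 0.31 (adjusted p = 0.347) and 0.52 without replicate 1 (adjusted p = 0.0369). Hsp90aa1, Hsph1, Hspb1 and Stip1 likewise passed without it and not with it, with log2 differences of 0.72, 0.68, 0.67 and 0.45. The 2 genes that fell, Cirbp and Rbm3, encode RNA-binding proteins induced by cold, and had log2 differences of −0.65 and −0.62 without replicate 1. The interaction with the regimen was called in 11 of the 22 as higher (3.58% of all genes) and in 2, Cirbp and Rbm3, as lower (1.02%). At the opening of the NRF window 12 of the 22 rose (2.68% of all genes) and 2 fell (5.88%), with a median of 0.41. The difference of the onset change between the regimens was called by limma in 0 of the 22, of which 4 had an unadjusted p under 0.05, and the list median of that difference was −0.11.

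Of 21 listed genes of the glucocorticoid response 20 were tested, and 9 were called, all lower (1.03% of all genes), with a median log2 difference of −0.79. Without replicate 1, 11 were called, the same 9 with Klf9 and Angptl4, all lower (3.24% of all genes), with a median of −0.73. In 13 of the 20 every ZT4 library lay below every ZT0 library, against 2.76% of all genes tested, and in 17 without replicate 1, against 10%. Leaving out any other of the 8 libraries left between 6 and 8 called, all lower. With only the 8 libraries in the fit, 2, Tsc22d3 and Sult1a1, were called, and 17 had an unadjusted p under 0.05. The gene of the glucocorticoid receptor itself, Nr3c1, had a log2 difference of 0.07 (adjusted p = 0.705).

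Zbtb16 (ENSMUSG00000066687, chromosome 9, 48654297 to 48836222, minus strand), a transcription factor strongly induced by glucocorticoids, stood at 27.1, 31.97, 15.3 and 21.7 TPM at ZT0 and 13.8, 3.28, 4.62 and 6.28 TPM at ZT4. All ZT4 libraries were lower than all ZT0 libraries, with replicate 1 the nearest to them. On the log2 scale the fall was −1.76 ± 0.38 (SE; adjusted p = 0.00599), and −2.11 ± 0.39 (SE; adjusted p = 0.000557) without replicate 1. Against DRF ZT24 it was −1.18 (adjusted p = 0.0554).

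Further regulators on the list fell. Cdkn1a, which encodes a cyclin-dependent kinase inhibitor, stood at 31.9, 47.2, 48.8 and 44.8 TPM at ZT0 and 15.04, 24.4, 20.2 and 22.9 TPM at ZT4, a log2 difference of −1.03 ± 0.20 (SE; adjusted p = 0.00196), and −0.90 without replicate 1 (adjusted p = 0.00665). Tsc22d3, the leucine zipper gene used as a readout of glucocorticoid action, stood at 63.2, 77.7, 78.8 and 61.4 TPM at ZT0 and 33.4, 38.3, 37.8 and 39.1 TPM at ZT4, a log2 difference of −0.89 ± 0.20 (SE; adjusted p = 0.00948), and −0.85 without replicate 1 (adjusted p = 0.0144). Neither gene overlapped between the groups, and in both replicate 1 was the lowest of all 8 libraries. Fkbp5, a cochaperone that dampens the receptor, and Errfi1, a feedback inhibitor of the EGF receptor, fell by 0.91 and 0.71 (adjusted p = 0.0479 and 0.0141). Klf9 was called without replicate 1 and not with it (log2 difference −0.55 ± 0.15 (SE; adjusted p = 0.0164)). Sgk1, Cebpd, Dusp1 and Nfkbia did not overlap between the groups and had adjusted p of 0.0648, 0.0659, 0.234 and 0.079.

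Among the effectors, Sult1a1 (ENSMUSG00000030711, chromosome 7, 126672865 to 126676432, minus strand), a sulfotransferase of phenols and drugs, stood at 75.7, 75.9, 85.5 and 69.5 TPM at ZT0 and 47.3, 40.3, 29.9 and 33.9 TPM at ZT4. Its log2 difference was −1.02 ± 0.16 (SE; adjusted p = 0.000289), or −1.13 ± 0.17 (SE; adjusted p = 4.84e-05) without replicate 1, and the call held under every alternative tried. Glul, which encodes glutamine synthetase, stood at 299.5, 263, 276 and 239.7 TPM at ZT0 and 201, 123, 146 and 105 TPM at ZT4, a log2 difference of −0.94 ± 0.16 (SE; adjusted p = 0.000619), and −1.11 without replicate 1 (adjusted p = 3.22e-05). Mt1, a metal-binding metallothionein, stood at 343, 285, 361 and 341 TPM at ZT0 and between 197 and 229 TPM at ZT4, a log2 difference of −0.66 ± 0.15 (SE; adjusted p = 0.00941), and −0.70 without replicate 1 (adjusted p = 0.00572). None of the 3 overlapped between ZT0 and ZT4. Arrdc2, an arrestin-domain gene, fell by 0.87 (adjusted p = 0.0264), while Mt2, Lcn2 and Mertk had adjusted p of 0.387, 0.853 and 0.558. Tat did not reach 1 TPM.

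Under NRF the glucocorticoid list had a median of 0.00 between ZT0 and ZT4, with 0 of 20 called by limma and 5 at an unadjusted p under 0.05. The interaction was called lower in 6 of the 20 (1.02% of all genes), and in 7 without replicate 1 (2.47%), with medians of −0.71 and −0.68. Sult1a1 had an interaction of −1.38 (adjusted p = 0.000317), Glul of −1.14 (adjusted p = 0.00207) and Zbtb16 of −2.14 (adjusted p = 0.0119). At the opening of the NRF window 4 of the 20 fell (5.88% of all genes) and the list median was −0.34. The onset change differed between the regimens in Cdkn1a (−1.26; adjusted p = 0.0233) and Mt1 (−0.83; adjusted p = 0.0484), and in 0 of the 20 by limma without replicate 1, where 6 had an unadjusted p under 0.05. Corticosterone was not measured in these files.

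Of 30 tested targets of FOXO and genes repressed by insulin, 6 were called lower (1.03% of all genes) and 0 higher, with a median of −0.23 against −0.01 over all genes. Without replicate 1, 11 were lower (3.24% of all genes) and 0 higher, with a median of −0.25 against −0.02. Leaving out ZT4 replicate 3 or 4, or ZT0 replicate 1 or 2, left 2, leaving out ZT4 replicate 2 or ZT0 replicate 3 left 3, and leaving out ZT0 replicate 4 left 4. With only the 8 libraries in the fit, 1, Ddit4, was called and 13 had an unadjusted p under 0.05. Ddit4 (ENSMUSG00000020108, chromosome 10, 59949669 to 59951834, minus strand), an inhibitor of the growth kinase complex mTORC1 that is also induced by glucocorticoids and fasting, stood at 153, 143, 121 and 120.2 TPM at ZT0 and 36.05, 42.7, 51.3 and 60.3 TPM at ZT4. The groups lay far apart, and replicate 1 was the lowest of all 8 libraries. The log2 difference was −1.50 ± 0.38 (SE; adjusted p = 0.0256), and −1.37 ± 0.42 (SE; adjusted p = 0.038) without replicate 1. The call was lost when ZT4 replicate 2 or 3, or ZT0 replicate 1 or 2, was left out. Against DRF ZT24, with a mean of 82.4 ± 22.3 TPM, it was −0.76 (adjusted p = 0.256).

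The other called genes of this list had smaller differences. Ccng2, an unconventional cyclin of growth arrest, stood at 14.99, 14.2, 15.04 and 12.8 TPM at ZT0 and 12.03, 8.21, 8.82 and 7.76 TPM at ZT4, a log2 difference of −0.59 ± 0.11 (SE; adjusted p = 0.000848), and −0.72 without replicate 1 (adjusted p = 3.79e-05). Cdkn1b, another inhibitor of cyclin-dependent kinases, stood at 35.2, 35.9, 33.9 and 32.96 TPM at ZT0 and 28.6, 26.1, 28.8 and 24.2 TPM at ZT4, a log2 difference of −0.35 ± 0.08 (SE; adjusted p = 0.00841), and −0.38 without replicate 1 (adjusted p = 0.00399). Both were lower in every ZT4 library than in any ZT0 library. Sesn1, a stress-induced inhibitor of mTORC1, Eif4ebp1, a repressor of cap-dependent translation, and Trim63, a muscle ubiquitin ligase, fell by 0.36, 0.27 and 0.48 (adjusted p = 0.0446, 0.0451 and 0.0338). Further genes were called lower without replicate 1 and not with it. Fbxo32, the other main muscle ubiquitin ligase, stood at 40.96, 29.6, 37.6 and 34.98 TPM at ZT0 and 42.2, 17.1, 16.3 and 17.9 TPM at ZT4, so that replicate 1 was above every ZT0 library and the other 3 were below all of them. Its log2 difference was −0.70 ± 0.22 (SE; adjusted p = 0.0688), and −1.02 ± 0.20 (SE; adjusted p = 0.00137) without replicate 1. Klf15, Foxo3, Pik3ip1 and Fbxo21 passed likewise without it and not with it, with log2 differences of −0.94, −0.51, −0.65 and −0.38. The receptor and adaptor genes Insr, Irs1, Irs2 and Igf1r had adjusted p of 0.643, 0.147, 0.47 and 0.513.

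Genes of the fasting lipid response, many of them PPAR targets, depended on the libraries, scaling and baseline in their calls. Of 30 tested, 1 was called lower and 0 higher, and without replicate 1, 5 were lower and 0 higher, with medians of −0.19 in both cases. Over all genes 1.03% and 3.24% were called lower in these fits, so 1 of 30 lies near the share over all genes. Leaving out ZT0 replicate 1 left 0. With all 8 libraries, 4 were lower under median-of-ratios scaling (2.55% of all genes), and 7 against DRF ZT24 (2.47%), Plin4, Ucp3, Angptl4 and Lipe in both. Plin4, a lipid droplet coat protein, was the gene called against ZT0 both with and without replicate 1. It stood at 94.4, 89.8, 73.1 and 70.8 TPM at ZT0 and 63.1, 47.3, 48.3 and 46.8 TPM at ZT4. Its log2 difference was −0.66 ± 0.15 (SE; adjusted p = 0.00798), and −0.77 without replicate 1 (adjusted p = 0.00159). Ucp3, the muscle uncoupling protein, stood at 90.1, 44.1, 52.4 and 72.3 TPM at ZT0 and 98.96, 18.1, 14.3 and 8.55 TPM at ZT4. Replicate 1 was the highest of all 8 libraries and the other 3 ZT4 libraries were the lowest. Its log2 difference was −1.46 ± 0.43 (SE; adjusted p = 0.0554), and −2.17 ± 0.38 (SE; adjusted p = 0.0003) without replicate 1. Angptl4, an inhibitor of lipoprotein lipase, stood at 33.7, 7.91, 10.2 and 25.1 TPM at ZT0 and 14.2, 3.04, 2.59 and 1.28 TPM at ZT4, with log2 differences of −1.87 (adjusted p = 0.0679) and −2.43 without replicate 1 (adjusted p = 0.00858). Lipe and Vldlr, a triglyceride lipase and a lipoprotein receptor, fell by 0.70 and 0.45 without replicate 1. Pdk4, the kinase that closes off glucose oxidation in fasting, stood at 903, 389, 419.6 and 804 TPM at ZT0 and 568, 254, 171 and 201 TPM at ZT4, with adjusted p of 0.187 and, without replicate 1, 0.0504. Among the ZT0 libraries, replicates 1 and 4 were the high ones in Pdk4, Angptl4 and Ucp3.

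Of 30 fatty acid oxidation genes, 1 was called lower (1.03% of all genes) and 0 higher, and 2 were lower without replicate 1 (3.24%), counts near the shares over all genes, with a list median of −0.06 in both. Ehhadh, the bifunctional enzyme of peroxisomal oxidation, stood at 20.3, 10.9, 11.5 and 14.7 TPM at ZT0 and 14.9, 7.18, 7.85 and 5.58 TPM at ZT4, a log2 difference of −0.68 ± 0.18 (SE; adjusted p = 0.0338), and −0.94 without replicate 1 (adjusted p = 0.000537). Its call was lost in 7 of 19 alternatives, and without ZT4 replicate 2, 3 or 4, or ZT0 replicate 1 or 4, 0 genes of the list were called. Cpt1a, an isoform of the carnitine transferase that admits fatty acids to mitochondria, stood at 58.99, 43.6, 46.5 and 46.3 TPM at ZT0 and 54.6, 30.9, 27.5 and 23.6 TPM at ZT4, with log2 differences of −0.57 (adjusted p = 0.0651) and −0.81 without replicate 1 (adjusted p = 0.00153). The interaction with the regimen was called for both of these genes, at −1.18 and −0.93 (adjusted p = 0.00391 and 0.0186).

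Of 19 tested core clock genes, 3 were higher, Nr1d1, Dbp and Bhlhe41, and 2 were lower, Per1 and Rora, with a median of 0.04. Over all genes 1.28% were higher and 1.03% lower. Against DRF ZT24, 7 were higher (2.6% of all genes) and 3 lower (2.47%), with a median of 0.33. With only the 8 libraries in the fit, 0 were called by limma and 6 had an unadjusted p under 0.05. Without replicate 1 the same genes except Dbp were called. Leaving out ZT4 replicate 3 or 4, or ZT0 replicate 2, left 0 lower calls, and leaving out any of the other ZT0 libraries or ZT4 replicate 2 left 1. Nr1d1 (ENSMUSG00000020889, chromosome 11, 98767932 to 98775333, minus strand), the nuclear receptor that represses Arntl, stood at 18.01, 22.9, 21.1 and 25.04 TPM at ZT0 and 139, 82.3, 58.8 and 55.2 TPM at ZT4. It was higher in every ZT4 library than in any ZT0 library, and highest in replicate 1. Its rise on the log2 scale was 1.81 ± 0.27 (SE; adjusted p = 0.000281), and 1.53 ± 0.28 (SE; adjusted p = 0.000491) without replicate 1.

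Per1 (ENSMUSG00000020893, chromosome 11, 69095217 to 69109960, plus strand), a repressor of the loop that responds both to the clock and to glucocorticoids, stood at 17.3, 33.4, 22.5 and 21.3 TPM at ZT0 and 13.4, 7.45, 6.196 and 7.36 TPM at ZT4. Every ZT4 library was below every ZT0 library, and replicate 1 was the nearest to them. This gave a log2 difference of −1.37 ± 0.36 (SE; adjusted p = 0.0322), and −1.59 ± 0.39 (SE; adjusted p = 0.0087) without replicate 1. The call of Per1 was lost when any of ZT4 replicates 2 to 4 or ZT0 replicates 2 to 4 was left out. Against DRF ZT24, with a mean of 12.3 ± 4.71 TPM, it was −0.44 (adjusted p = 0.525).

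Dbp, a PAR bZIP activator of output genes, stood at 9.25, 18.8, 10.7 and 12.97 TPM at ZT0 and 118, 37.4, 25.9 and 17.5 TPM at ZT4. Replicate 1 held the highest value, and replicate 4 lay below the highest ZT0 library. The log2 difference was 1.53 ± 0.42 (SE; adjusted p = 0.0414), and 0.99 ± 0.41 (SE; adjusted p = 0.151) without replicate 1, and it was also lost without ZT4 replicate 2 or 3, or ZT0 replicate 1, 3 or 4, in 11 of 19 alternatives in all. Bhlhe41, an auxiliary repressor, stood at 4.298, 4.61, 3.48 and 4.27 TPM at ZT0 and 12.4, 6.98, 6.97 and 6.19 TPM at ZT4, a log2 difference of 0.78 ± 0.14 (SE; adjusted p = 0.000877), and 0.58 without replicate 1 (adjusted p = 0.0055). Rora, an activator of Arntl, fell by 0.36 (adjusted p = 0.0445).

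Other clock genes set replicate 1 apart without a call for the group. Arntl, the main activator, stood at 6.45, 7.36, 7.86 and 6.74 TPM at ZT0 and 1.94, 6.14, 5.75 and 7.15 TPM at ZT4. Nfil3, the repressor that opposes Dbp, stood at 17.2, 15.5, 17.6 and 13.7 TPM at ZT0 and 6.21, 15.1, 18.6 and 22.2 TPM at ZT4. Ciart, a repressor in phase with Dbp, stood at 1.17, 2.63, 1.53 and 1.04 TPM at ZT0 and 7.54, 2.06, 1.72 and 0.969 TPM at ZT4. In each of the 3, replicates 2 to 4 were near the ZT0 range and replicate 1 was outside it, and the adjusted p were 0.3, 0.812 and 0.585.

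The interaction with the regimen was called in some clock genes and not in others. Nr1d1 also rose under NRF between ZT0 and ZT4 (1.96; adjusted p = 2.62e-05), and the interaction was −0.15 (adjusted p = 0.901). It was called higher in Cry1, Nfil3, Hlf and Bhlhe41 (3.58% of all genes) and lower in Nr1d2 (1.02%). Without replicate 1 the call of Hlf was lost (adjusted p = 0.0972) and Rora was called lower (adjusted p = 0.00557). Cry1, a repressor, had log2 differences of −0.12 under DRF and −1.20 under NRF (adjusted p of the interaction 0.00247), and in Nr1d2, a relative of Nr1d1, they were 0.45 and 1.51 (adjusted p 0.0127). At the opening of the NRF window, 4 clock genes rose (2.68% of all genes) and 8 fell (5.88%), Nr1d1 by 1.89. The onset change differed between the regimens in 7 of the 19, 6 of them higher (0.324% of all genes) and 1 lower (0.267%) under DRF, led by Nr1d1 (3.70; adjusted p = 2.6e-08) and Dbp (3.37; adjusted p = 0.00381). Without replicate 1, 3 were called, Nr1d1, Dbp and Bhlhe41, all higher. The windows opened at opposite clock times, so this contrast compares different phases of the clock.

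**Figure D4:**
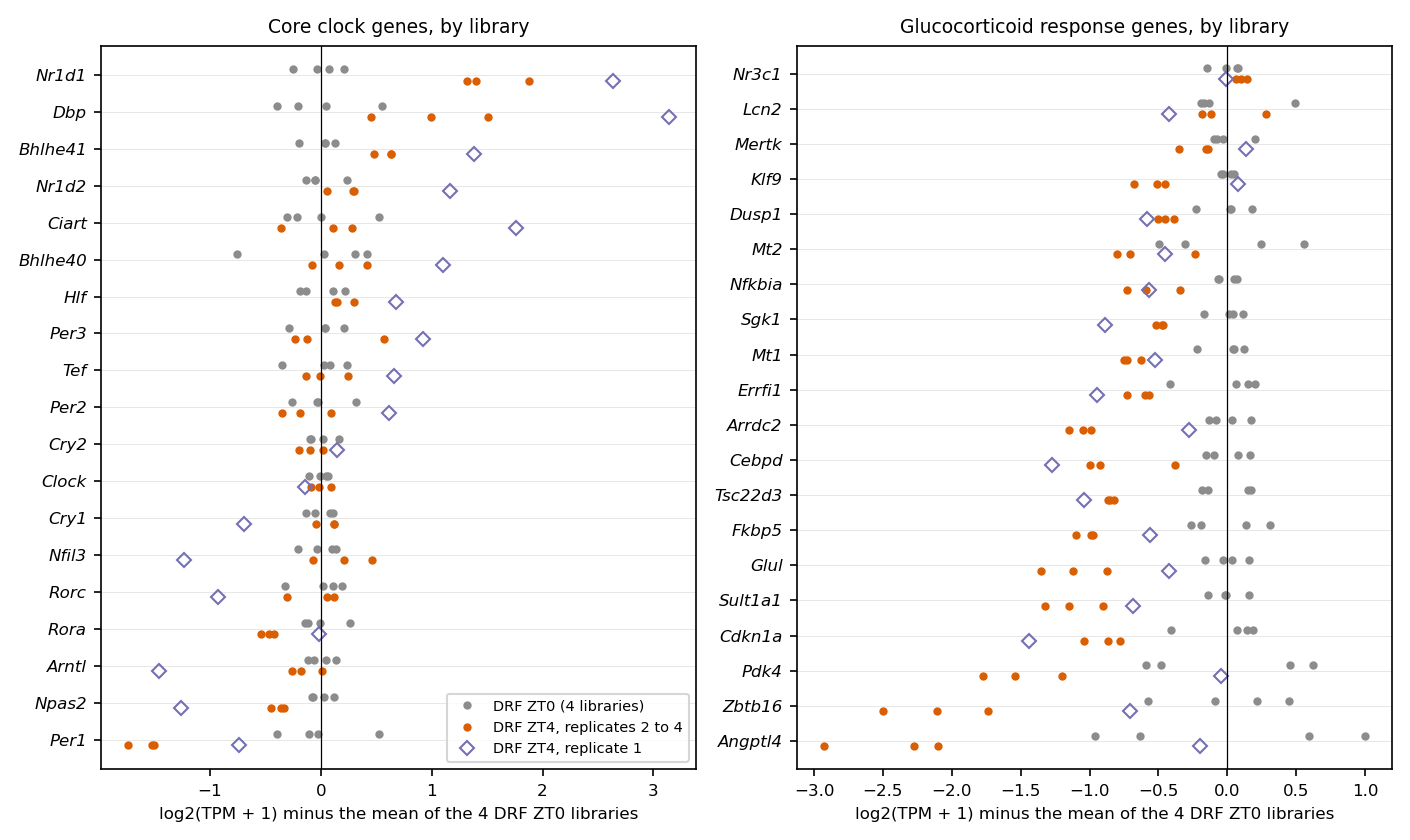
Core clock genes (left) and glucocorticoid response genes (right), 1 row per gene, with log2(TPM + 1) minus the mean of the 4 ZT0 libraries on the x axis and 1 point for each of the 8 libraries. Replicate 1 of ZT4 lies past the other 3 in 13 of 19 clock genes, while in 13 of 20 glucocorticoid genes all 4 ZT4 points lie left of the ZT0 points.

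The lists of glucose use, cholesterol synthesis, lipogenesis and ribosome biogenesis held few calls. Of 28 genes of glucose use, Hk1, the first enzyme of glycolysis, was the gene called higher (1.28% of all genes) and 0 were lower (1.03%). Hk1 stood at 35.4, 34.7, 37.3 and 35.7 TPM at ZT0 and 41.03, 46.5, 49.8 and 47.3 TPM at ZT4, a log2 difference of 0.36 ± 0.09 (SE; adjusted p = 0.0156), and 0.41 without replicate 1 (adjusted p = 0.00393). Its call was lost without ZT4 replicate 3 or 4, or ZT0 replicate 1, and against DRF ZT24, where it was 0.27 (adjusted p = 0.0561). Against ZT24, 0 genes of this list were higher by limma (2.6% of all genes) and 3 were lower (2.47%), Slc2a1, Pfkfb2 and Pdp2, which were named after their values were seen. With limma over all 8 libraries, 0 of 22 cholesterol synthesis genes were called and 3 had an unadjusted p under 0.05, and Hmgcs1, an early enzyme of the pathway, rose by 0.32 without replicate 1 (adjusted p = 0.00926). In the same fit 0 of 22 lipogenesis genes were called and 4 had an unadjusted p under 0.05, and without replicate 1 the desaturase Scd2 was higher (2.6% of all genes) while the acyltransferases Gpam and Agpat2 were lower (3.24%), by 0.71, −0.60 and −0.40. With all 8 libraries, 2228 of 13869 genes had an unadjusted p under 0.05, a share near those of both lists. Of 30 ribosome biogenesis genes, Ubtf, a factor of RNA polymerase I, rose by 0.32 (adjusted p = 0.0267) and the nucleolar protein Npm1 fell by 0.23 (adjusted p = 0.0457). Both were also called without replicate 1, but over 19 alternatives the call of Ubtf was lost in 7, among them leaving out any of ZT4 replicates 2 to 4, and that of Npm1 in 13, among them median-of-ratios scaling, the deposited values and ZT24 as baseline. Without replicate 1, 3 of the 30 were higher (2.6% of all genes) and 1 lower (3.24%). With median-of-ratios scaling 4 of the 30 were higher (4.07% of all genes) and 0 lower (2.55%), and against ZT24 0 were called. The list medians, in this order, were −0.01, 0.03, −0.06 and 0.08.

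The amino acid response gave 3 higher and 0 lower of 27 targets of ATF4, against 1.28% and 1.03% of all genes, and 4 higher and 3 lower without replicate 1, against 2.6% and 3.24%. Leaving out ZT4 replicate 2 or 4, or ZT0 replicate 1, left 0 calls, and against DRF ZT24, 2 were higher (2.6% of all genes), Atf4 and Ddit3, and 3 lower (2.47%), Slc7a1, Chac1 and Vldlr. Ddit3, a transcription factor shared with the ER stress response, stood at 14.4, 20.5, 23.2 and 13.6 TPM at ZT0 and 16.8, 34.3, 29.9 and 28.2 TPM at ZT4, a log2 difference of 0.57 ± 0.15 (SE; adjusted p = 0.0333), and 0.78 without replicate 1 (adjusted p = 0.000649), and Atf5 and Mthfd2, a transcription factor and a mitochondrial folate enzyme, rose by 0.50 and 0.43 (adjusted p = 0.0114 and 0.035). Over 19 alternatives the calls of Ddit3, Atf5 and Mthfd2 were lost in 7, 5 and 10. Without replicate 1, Wars rose and Slc7a1, Chac1 and Vldlr fell. Chac1, a glutathione-degrading enzyme, stood at 3.56, 2.88, 4.06 and 3.82 TPM at ZT0 and 5.83, 1.12, 1.08 and 0.996 TPM at ZT4, with replicate 1 the highest of all 8 and the other 3 the lowest. Of 25 immediate early genes, 1 was higher and 1 lower, against 1.28% and 1.03% of all genes. Ier3 rose by 0.62 and Zfp36, which destabilises cytokine mRNAs, fell by 0.75 (adjusted p = 0.0322 and 0.00567). Both were also called without replicate 1, but the call of Ier3 was lost without ZT4 replicate 3 or 4, or ZT0 replicate 1 or 4. Zfp36 was not called against DRF ZT24, where its log2 difference was −0.08 (adjusted p = 0.821).

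Of 31 genes of cardiac channels and calcium handling, 1 was higher (1.28% of all genes) and 2 were lower (1.03%), as they were without replicate 1. Leaving out ZT4 replicate 3 or 4 left 0 calls, and against DRF ZT24 0 were higher (2.6% of all genes) and 4 lower (2.47%). Kcna5, a potassium channel subunit, stood at 33.4, 50.1, 51.4 and 37.3 TPM at ZT0 and 23.9, 24.2, 26.4 and 26.3 TPM at ZT4, a log2 difference of −0.73 ± 0.19 (SE; adjusted p = 0.0255), and −0.71 without replicate 1 (adjusted p = 0.0284). Its call was lost in 9 of 19 alternatives, among them leaving out any of ZT4 replicates 2 to 4, or ZT0 replicate 2 or 3, and against DRF ZT24 the difference was −0.16 (adjusted p = 0.687). The part of atrial tissue, whose markers are given above, in this gene was not tested. Adra1a, an alpha-adrenergic receptor, stood at 6.39, 6.598, 5.22 and 5.94 TPM at ZT0 and 6.22, 2.61, 3.39 and 2.22 TPM at ZT4, a log2 difference of −0.68 ± 0.16 (SE; adjusted p = 0.0145), and −0.92 without replicate 1 (adjusted p = 0.000101), with replicate 1 inside the ZT0 range, and the call was lost without any of ZT4 replicates 2 to 4 or without ZT0 replicate 1. Gnas, the stimulatory G protein, stood at 2.26, 10.05, 3.39 and 11.1 TPM at ZT0 and 16.6, 12.4, 10.4 and 11.9 TPM at ZT4. It lies in a cluster of overlapping imprinted transcripts, its ZT0 values fell into a low pair and a high pair, and its counting is uncertain. Its log2 difference was 1.04 ± 0.27 (SE; adjusted p = 0.0264), and 0.92 without replicate 1 (adjusted p = 0.0467), and its call was lost in 9 of 19 alternatives, among them leaving out ZT4 replicate 3 or 4, or ZT0 replicate 1 or 3.

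**Figure D5:**
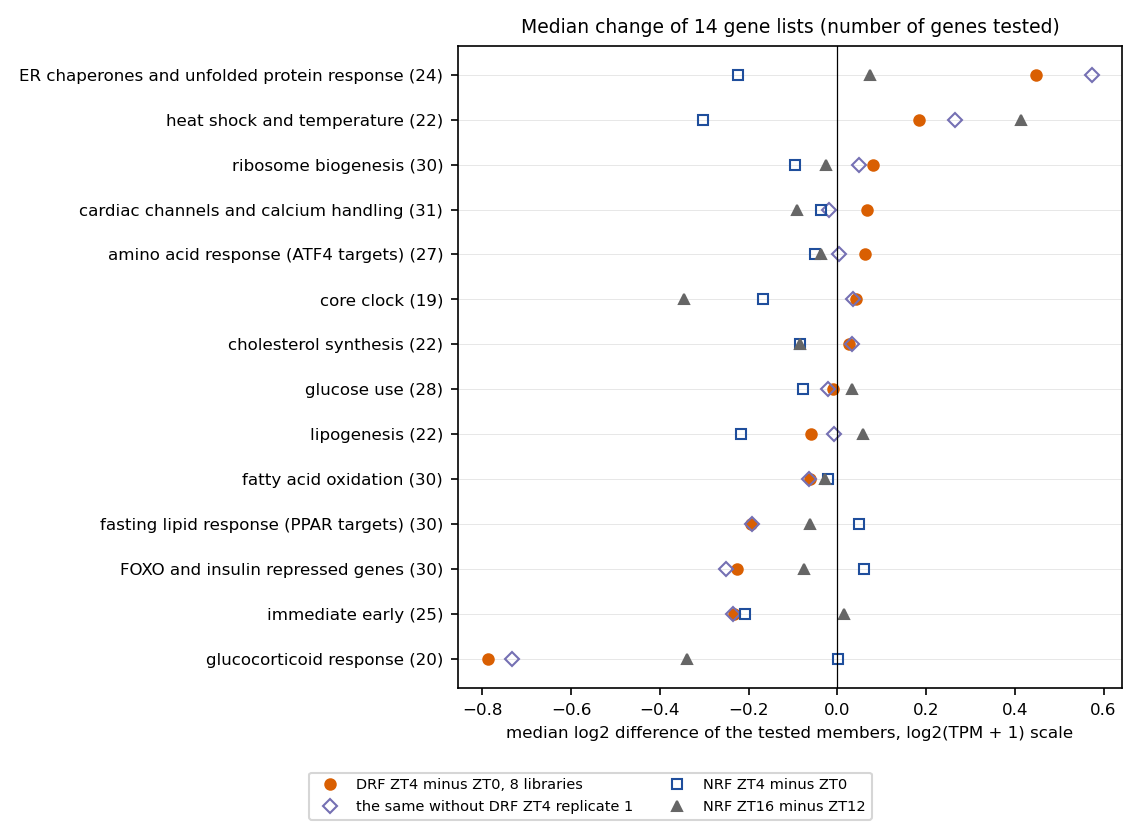
Median log2 difference of the tested members of 14 gene lists on the log2(TPM + 1) scale, for DRF ZT4 minus ZT0 with all 8 libraries and without replicate 1, NRF ZT4 minus ZT0 and NRF ZT16 minus ZT12. The ER list has the highest DRF median (0.45, 0.57 without replicate 1) and the glucocorticoid list the lowest (−0.79 and −0.73), while their NRF ZT4 medians are −0.22 and 0.00.

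Outside the lists, the larger rises included a receptor of neurite growth inhibition and a cytokine receptor. Rtn4r, the Nogo receptor, stood at 1.37, 4.33, 3.29 and 3.11 TPM at ZT0 and 3.85, 10.5, 18.4 and 12.5 TPM at ZT4, a log2 difference of 1.51 ± 0.33 (SE; adjusted p = 0.00744), and 1.90 without replicate 1 (adjusted p = 0.00021). Ccdc69 stood at 9.04, 10.3, 11.00 and 9.86 TPM at ZT0 and 11.5, 19.4, 26.4 and 26.9 TPM at ZT4, a log2 difference of 0.93 ± 0.21 (SE; adjusted p = 0.00941), and 1.18 without replicate 1 (adjusted p = 0.000306). Spsb4, an adaptor of a ubiquitin ligase, stood at 2.12, 1.82, 1.72 and 2.34 TPM at ZT0 and 3.24, 4.42, 5.88 and 5.63 TPM at ZT4, a log2 difference of 0.93 ± 0.16 (SE; adjusted p = 0.000563), and 1.07 without replicate 1 (adjusted p = 5.06e-05). In all 3 genes replicate 1 was the lowest of the ZT4 libraries, and in Rtn4r it lay inside the ZT0 range. Tnfrsf12a, the receptor of the cytokine TWEAK, stood at 34.4, 39.4, 33.3 and 42.2 TPM at ZT0 and 46.1, 77.02, 83.1 and 77.9 TPM at ZT4 and was barely under the threshold, at 0.88 ± 0.25 (SE; adjusted p = 0.0495). Without replicate 1 its log2 difference was 1.07 ± 0.27 (SE; adjusted p = 0.00994), and its call was lost in 13 of 19 alternatives, among them leaving out any other of the 8 libraries. The call of Rtn4r was lost without ZT4 replicate 3 or ZT0 replicate 1, and against DRF ZT24, where it was 0.87 (adjusted p = 0.116). That of Ccdc69 was lost without ZT4 replicate 3 or 4.

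Among the falls outside the lists, Timp4 (ENSMUSG00000030317, chromosome 6, 115241892 to 115252205, minus strand), an inhibitor of matrix metalloproteinases that is abundant in heart, stood at 28.6, 30.2, 32.4 and 30.8 TPM at ZT0 and 12.8, 13.1, 9.88 and 11.4 TPM at ZT4. All ZT4 libraries lay below all ZT0 libraries, and the log2 difference was −1.31 ± 0.22 (SE; adjusted p = 0.000455), or −1.35 ± 0.24 (SE; adjusted p = 0.000372) without replicate 1. Fam107a, an actin-associated gene, stood at 7.07, 8.37, 8.998 and 7.06 TPM at ZT0 and 3.88, 2.92, 2.09 and 2.73 TPM at ZT4, a log2 difference of −1.20 ± 0.22 (SE; adjusted p = 0.00127), and −1.31 without replicate 1 (adjusted p = 0.000537). Shld1, a subunit of the shieldin complex of DNA repair, stood at 25.8, 27.9, 30.04 and 23.9 TPM at ZT0 and 14.8, 11.8, 12.02 and 8.097 TPM at ZT4, a log2 difference of −1.16 ± 0.20 (SE; adjusted p = 0.000637), and −1.28 without replicate 1 (adjusted p = 0.000177). The calls of Timp4, Fam107a and Shld1 held under every alternative tried. Tob2, an antiproliferative gene, stood at 27.1, 35.6, 29.98 and 32.3 TPM at ZT0 and 16.2, 12.3, 12.7 and 16.4 TPM at ZT4, a log2 difference of −1.07 ± 0.25 (SE; adjusted p = 0.0112), and −1.13 without replicate 1 (adjusted p = 0.00766). Klhl38, a muscle gene of the kelch family, stood at 13.02, 7.77, 10.3 and 10.8 TPM at ZT0 and 12.9, 2.94, 2.53 and 3.58 TPM at ZT4, with replicate 1 at the top of the ZT0 range and the other 3 below it, a log2 difference of −1.05 ± 0.30 (SE; adjusted p = 0.0451), and −1.50 without replicate 1 (adjusted p = 0.000455). Its call was lost in 9 of 19 alternatives, among them leaving out any of ZT4 replicates 2 to 4, or ZT0 replicate 1, 3 or 4, and that of Tob2 without ZT4 replicate 3 and against DRF ZT24. The interaction of Timp4 with the regimen was −1.43 (adjusted p = 0.00376) and that of Rtn4r was 2.75 (adjusted p = 0.000317).

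Some called genes rest on uncertain counting. The short nuclear RNAs Gm47290 and Gm24060 and the pseudogene Eif3s6-ps2 had mean read numbers from 2.25 to 14.8 per library in the 2 groups. Ndufs6b is a pseudogene that may share reads with its parent, and AA672651, Gm11915 and 4930481A15Rik are antisense genes whose reads cannot be told from those of the opposite strand, since strand is not stated for the counting. Their log2 differences with all 8 libraries were between −1.64 and −0.76. Over 19 alternatives the call was lost in 13 for Gm47290, 10 for AA672651, 6 for Gm24060 and 5 for Eif3s6-ps2. It was lost in 7 for Ndufs6b, which changed sign in 2 more, in 4 for Gm11915 and in 1 for 4930481A15Rik.

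The onset change also differed between the regimens in genes that were no members of a list. Cx3cr1, the fractalkine receptor of macrophages, stood at 4.35, 4.47, 4.85 and 3.51 TPM at ZT0 and 7.31, 9.28, 8.45 and 6.84 TPM at ZT4, a log2 difference of 0.76 ± 0.18 (SE; adjusted p = 0.0112), and 0.79 without replicate 1 (adjusted p = 0.00803), and the difference from the NRF onset was 1.22 (adjusted p = 0.00917, and 0.0166 without replicate 1). Its call between ZT4 and ZT0 was lost without ZT4 replicate 3 or ZT0 replicate 4. Cd248, a surface protein of fibroblasts and pericytes, stood at 14.1, 14.1, 20.2 and 14.2 TPM at ZT0 and 27.5, 34.5, 25.4 and 20.5 TPM at ZT4, a log2 difference of 0.74 ± 0.16 (SE; adjusted p = 0.00612), and 0.72 without replicate 1 (adjusted p = 0.00776), with a difference of 1.00 from the NRF onset (adjusted p = 0.0235) that was not called without replicate 1 (adjusted p = 0.0571). Both were higher at ZT4 than in any ZT0 library. Summed over 8 leukocyte markers the 8 libraries ranged from 734 to 1198 TPM, and over 7 fibroblast markers from 532 to 929 TPM, with exact two-sided permutation p of 0.571 and 0.914 between ZT4 and ZT0. For 4 against 4 libraries the smallest possible p is 0.0286, and after adjustment over 14 measures of depth and composition all were 1. The part of cell composition in these genes was not tested.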

How the data were processed

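Heart RNA was polyA-selected and sequenced as paired reads. According to the submitters' processing notes, reads were aligned to mm10 with HISAT2 2.0.5 and counted with featureCounts 1.5.0-p3, and strand and batch are not given in the sources used here. The values deposited by the authors are named TPM, but they held log2 of 1 plus depth-scaled reads, divided by gene length, and so are not linear TPM. Whole read counts were recovered from them (99.999% of 1197748 values whole within 0.1 read), with lengths from GENCODE M21 (GRCm38) or, for 830 genes, searched for in the values, and TPM was recomputed. The plan allowed for this step if whole reads could be seen, and the deposited values are kept as an alternative.

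Limma 3.58.1 in R 4.3.3 was fitted to log2(TPM + 1) of the 13869 genes averaging 1 TPM or more, with 14 group means over 56 libraries and a trended prior. P-values were adjusted by Benjamini-Hochberg over all genes tested. Library composition was compared by exact two-sided permutation tests (scipy 1.17.1). The fit and the recovery were tested on simulated data. No pair of libraries was identical.

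Named genes are the 12 largest rises and falls called with and without DRF ZT4 replicate 1, the 5 largest differences in each direction of both interaction tests among called genes, and list members by adjusted p within their list. The members and lists were chosen with earlier results of these data known. Lists are described by counts and medians, without a set test. Alternatives were the pseudocount, the filter, median-of-ratios scaling, library weights, the deposited values, a replicate block, only the groups of a contrast, ZT24 as the baseline and leaving out each library. Promoter windows came from RefSeq (GRCm38.p6).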

Additional observations from a re-analysis of the deposited data

Results flagged for a closer look

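Some libraries stood apart from the other 3 of their group. The gap to the nearest library, as a share of the group's range, passed Dixon's 95% critical value in 15 of 164 groups of 4 values examined, and chance flags about 1 in 20 groups. These groups share the same 8 libraries and hold genes named by these fits. They are not independent, so the number flagged carries no test. DRF ZT4 replicate 1 was the library that stood apart in 7 of the 15. In that library the shares were Serpinh1 0.942, Tnfrsf12a 0.836, Zc3h6 0.853, Klhl38 0.899, Bhlhe41 0.873, Plin4 0.907 and Ucp3 0.894. The other genes that showed such a gap were Gm47290 in DRF ZT0 replicate 4 (0.841), Gm47290 in DRF ZT4 replicate 2 (0.892), Cd248 in DRF ZT0 replicate 3 (0.98), Hk2 in DRF ZT4 replicate 2 (0.909), Sqle in DRF ZT0 replicate 2 (0.836) and Zfp36 in DRF ZT4 replicate 2 (0.859). Summed erythroid markers (0.948) and summed mesothelial markers (0.945) showed it in DRF ZT4 replicate 2.

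The change between ZT0 and ZT4 differed between DRF and NRF, by limma's test of the interaction at an adjusted p under 0.05, in 38 of the 68 named genes. Some were named for this interaction and others for their change under DRF, which is part of it. The count is therefore shaped by that choice and is not comparable with the 4.6% of all genes. The log2 difference was larger under DRF in Rtn4r (2.75), Sdf2l1 (2.12), Manf (1.80), Ccdc69 (1.62), Creld2 (1.46), Spsb4 (1.41), Hyou1 (1.38), Serpinh1 (1.28), Tnfrsf12a (1.23), Hspa5 (1.23), Ddit3 (1.15), Ier3 (1.06), Scd2 (0.97), Pdia3 (0.85), Bhlhe41 (0.83), Chordc1 (0.81), Atf5 (0.68), Rrp12 (0.65), Hk1 (0.62), Ubtf (0.52), Hspa4 (0.41) and Hmgcs1 (0.36). It was smaller under DRF in Ucp3 (−2.23), Zbtb16 (−2.14), Zc3h6 (−1.50), Klhl38 (−1.46), Timp4 (−1.43), Sult1a1 (−1.38), Fam107a (−1.18), Ehhadh (−1.18), Shld1 (−1.15), Glul (−1.14), Adra1a (−1.10), Cpt1a (−0.93), Ccng2 (−0.90), Lipe (−0.89), Cdkn1b (−0.45) and Npm1 (−0.34).

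By the same kind of test, the change over the first 4 h of the feeding window differed between the regimens in 82 genes (0.591% of all genes). The 10 given here are the 5 largest differences in each direction by which genes were named, so their number was set by that rule. The change was larger under DRF in Nr1d1 (3.70), Dbp (3.37), Bhlhe41 (1.40), Cx3cr1 (1.22) and Cd248 (1.00), and smaller in Ndufs6b (−1.55), Gm27252 (−1.46), Tmem171 (−1.43), Cdkn1a (−1.26) and 4930481A15Rik (−0.92). Without DRF ZT4 replicate 1 this difference was no longer called in Cd248, Cdkn1a and 4930481A15Rik (adjusted p = 0.0571, 0.076 and 0.0596).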

How the results depend on the processing

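The count of genes called between DRF ZT4 and ZT0 (321) became 918 with median-of-ratios scaling, 1669 with that scaling and without replicate 1, 1430 with library weights, 978 on the deposited log2 values, 10 with only the groups of the contrast, 703 against DRF ZT24, 1379 against ZT24 without replicate 1 and 654 without ZT4 replicates 1 and 2. Leaving out each library in turn gave 92 to 809. The interaction with the regimen (638) became 1003, 1087, 1084 and 75 under the scaling, weights, deposited values and contrast groups, and 316 to 1016 with each library left out. For the change at feeding onset (82) these were 249, 517, 259 and 38, and 27 to 190. The libraries behind the lowest counts were DRF ZT4 replicate 3 for the contrast and for the interaction, and NRF ZT16 replicate 4 and NRF ZT12 replicate 1 for the onset change. For the contrast the share of higher calls moved from 55.5% to 61.4% with median-of-ratios scaling and 64.1% on the deposited values. It was 20% of the 10 calls with only the groups of the contrast. With each library left out it lay between 44.5% (ZT4 replicate 1) and 69.4% (ZT0 replicate 3). For the interaction it moved from 77.9% to 57.6% with median-of-ratios scaling, 62.5% on the deposited values and 66.2% without replicate 1. It was 51.1% with ZT24 as the baseline and 88.6% without NRF ZT4 replicate 4. For the onset change it moved from 54.9% to 74.3% with library weights and 36.8% with only the groups of the contrast, and with each library left out in turn it lay between 29.4% (NRF ZT16 replicate 1) and 70.5% (DRF ZT4 replicate 4). A pseudocount of 0.1 gave 319, 628 and 77 calls, and no filter on low values gave 221, 495 and 57. The causes were not tested. The analyses with both replicates 1 and 2 left out, and of the lists with single libraries left out, were chosen after seeing the data. Median-of-ratios scaling without replicate 1, and the lists against ZT24, were likewise not planned.

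Among the lists, the calls became fatty acid oxidation 2, fasting lipid genes 4, cholesterol synthesis 1, lipogenesis 1, ribosome biogenesis 4, ATF4 targets 6, immediate early 4 and heat shock genes 6 with median-of-ratios scaling, core clock 10, fasting lipid genes 7, glucose use 3, cholesterol synthesis 1, lipogenesis 3, ribosome biogenesis 0, ATF4 targets 5 and immediate early 1 against ZT24, and fatty acid oxidation 2, fasting lipid genes 4, cholesterol synthesis 1, lipogenesis 1, heat shock genes 10 and cardiac channels 1 without ZT4 replicates 1 and 2. With only the groups of the contrast they were 1 for ER genes, 2 for the glucocorticoid response, 1 for FOXO targets and 0 for the other 11 lists. With each of the 8 libraries left out in turn they ranged over 2 to 4 for core clock, 0 to 2 for fatty acid oxidation, 0 to 5 for fasting lipid genes, 2 to 11 for FOXO targets, 0 to 1 for glucose use, 0 to 1 for cholesterol synthesis, 0 to 3 for lipogenesis, 0 to 4 for ribosome biogenesis, 0 to 7 for ATF4 targets, 6 to 11 for glucocorticoid response, 1 to 3 for immediate early, 1 to 10 for heat shock genes, 10 to 16 for ER chaperones and unfolded protein response and 0 to 4 for cardiac channels. Against ZT24 the list medians became 0.33 for the core clock, −0.54 for the glucocorticoid response, 0.042 for immediate early genes, 0.33 for ER genes and −0.075 for cardiac channels, and the ER median was 0.57 without replicate 1. Without replicate 1 the difference in reads turned to −0.21 M reads and that in the share of the 10 most abundant genes to −0.387 percentage points. Against ZT24, Ndufs6b turned to 0.57 and Hk2 to −0.13, and without replicate 1 to 0.56 and −0.15.

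Same-numbered libraries of ZT0 and ZT4 did not deviate together, with correlations of 0.12, −0.11, 0.01 and 0.15 for replicates 1 to 4, so the numbers were not taken as pairs. A fit with a replicate block gave 285, 633 and 68 calls in the 3 tests, and core clock 3, ribosome biogenesis 1 and immediate early 4 among the lists. Genes that averaged under 1 TPM were left out by the filter on low values, and depth was 29.5 to 39.3 M reads.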
